A study of Homo sapiens with 6 samples.

Results

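Mitochondria fuse, divide and move along microtubules, and the 10 genes described here encode the core proteins of these steps. They are MFN1, MFN2, OPA1 and OMA1 for fusion, DNM1L, FIS1, MFF and MIEF1 for fission, and RHOT1 and RHOT2 for transport. They were taken by name from 22260 genes, and every probe set that the platform annotation assigned to 1 of them alone was used, which gave 177 of 259224 such probe sets. The 14 probe sets of MIEF1 stood under its older symbol. The cells were NK-92MI, a human natural killer (NK) cell line that makes its own interleukin 2. Total RNA from 3 Control samples and 3 Mitochondrial transfer samples was hybridised to Affymetrix whole-transcript arrays. The transfer samples had received 5 µg of mitochondria, isolated from the cell line WRL-68 that the study describes as hepatocytes, by centrifugation at 1500 × g for 15 min. Whether the Control cells of the arrays were also centrifuged, the time from transfer to RNA extraction, and whether the replicates were separate cultures are not given in the sources used here, so p-values measure the spread between these samples, which may be technical. All samples came from 1 cell line.

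The outer mitochondrial membranes are joined by the mitofusins MFN1 and MFN2, and the inner membranes by OPA1, which the protease OMA1 cleaves under stress. Division is carried out by the GTPase encoded by DNM1L, known as DRP1, which assembles on the outer membrane at the adaptors FIS1, MFF and MIEF1. RHOT1 and RHOT2 encode the Miro proteins, calcium-binding GTPases of the outer membrane that couple mitochondria to kinesin and dynein. In NK cells, fragmented mitochondria have been linked to weaker killing.

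Values were log2 intensities per probe set and array, each probe set covering about an exon. A gene was first represented by its brightest probe set, the one whose 6 arrays had the greatest mean. Most genes had several, with a median of 10. The background, the 95th percentile of 367 olfactory receptor genes, was 6.59 for brightest probe sets, and the same percentile over 845 olfactory receptor probe sets was 6.15. All 10 genes lay above the first by their brightest probe set, as did 16006 of all 22260 genes. Of their 177 probe sets 149 lay above the second, as did 135228 of the 259224 probe sets naming 1 gene. A value above background does not by itself show expression. Array medians were 6.05 to 6.10, and the correlation across genes was 0.981 to 0.983 among Control arrays, 0.969 to 0.972 among transfer arrays and 0.961 to 0.964 between the groups. All 17 measured NK cell markers lay above background, with an array mean of 10.68 to 10.79 in Control and 10.46 to 10.59 after transfer. Of these markers 0 passed the limma test, beside 1.98% of all genes. At an unadjusted p under 0.05 there were 5, all lower, beside 17.9% of all genes in either direction. Of 15 measured hepatocyte and epithelial markers, 13 lay above background, and their array mean was 7.51 to 7.67 in Control and 7.50 to 7.69 after transfer. The part of either marker list in the results was not tested. In bulk RNA, fewer cells of a type and less RNA per cell cannot be told apart.

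None of the 10 genes passed the test by its brightest probe set. The limma fit with Benjamini-Hochberg adjustment over all genes called 0 of 10, where it called 1.98% of all genes, 1.74% as higher and 0.234% as lower after transfer. At an unadjusted p under 0.05 there was 1 of 10 (FIS1), against 17.9% of all genes. The methods' t-test also called 0 and gave 1 at an unadjusted p under 0.05. The Control and transfer values did not overlap for 3 of 10 genes, FIS1 and MIEF1 lower and RHOT1 higher, and for 25.8% of all genes. Next, the median over all probe sets of a gene, taken on each array, took the place of the brightest. Its difference can have another sign than the median of the probe set differences. Limma again called 0 of 10, against 0.0719% of all genes. At an unadjusted p under 0.05 there were 2 genes, MFN2 and FIS1, against 13.4% of all genes. On that scale MFN2 and FIS1 lay lower without overlap, as did 13.3% of all genes, and OPA1 lay higher without overlap, as did 7.49%.

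**Figure D1:**
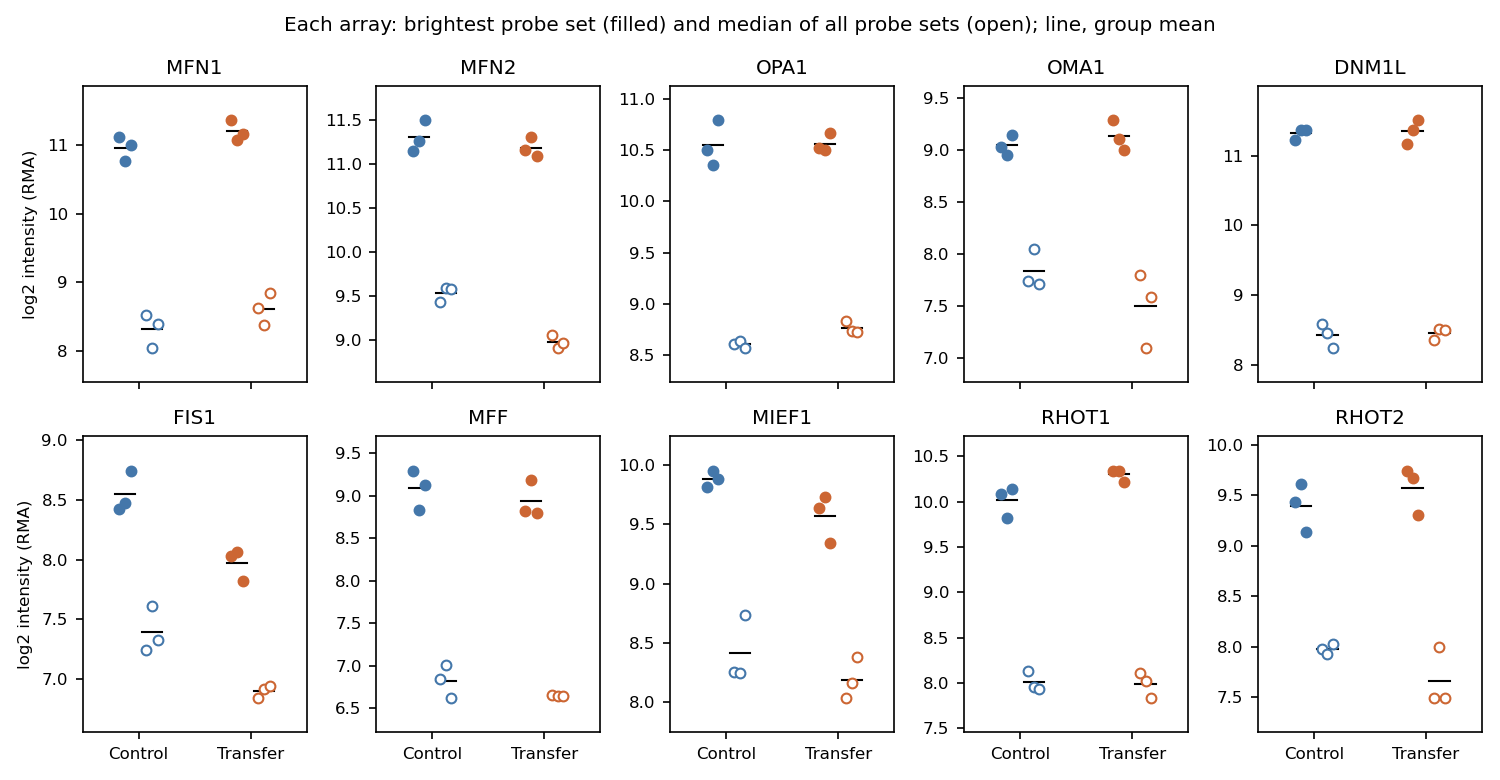
Log2 intensity of the 10 genes on each of the 6 arrays, with 1 panel per gene, Control in blue and transfer in orange. Filled points are the brightest probe set, open points the median of all probe sets of the gene on that array, and lines the group means; the FIS1 points of both kinds lie lower after transfer, the open MFN2 points have means of 9.53 and 8.97, and most other panels overlap.

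The mitofusins had differences of opposite sign. MFN1 (chromosome 3, 179347709 to 179394936 in GRCh38.p14) had brightest probe set values of 11.12, 10.77 and 11.01 in Control and 11.37, 11.09 and 11.17 after transfer. The groups overlapped, with the lowest transfer value below the highest Control value. The difference was 0.24 on the log2 scale (SE 0.16, 95% interval -0.13 to 0.61, limma adjusted p = 0.462). Across its probe sets 14 of 17 were higher after transfer, with a median difference of 0.26. Only 2 of the 17 did so without overlap, as did 7.29% of all probe sets, and the one with the largest positive difference, 16948268, had 6.86, 7.33 and 7.07 in Control and 8.63, 7.98 and 7.41 after transfer (limma adjusted p = 0.478).

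MFN2 (chromosome 1, 11980444 to 12013508), which besides fusion tethers mitochondria to the endoplasmic reticulum, had brightest probe set values of 11.14, 11.26 and 11.50 in Control and 11.16, 11.30 and 11.08 after transfer. These overlapped, and the difference was -0.12 (SE 0.15, 95% interval -0.48 to 0.24, limma adjusted p = 0.719). Over the whole gene, 22 of its 23 probe sets had a lower transfer mean. In 11 of them the groups did not overlap, which held for 10.7% of all probe sets. The median over its probe sets was 9.42, 9.58 and 9.58 in Control and 9.05, 8.90 and 8.96 after transfer. All transfer arrays lay below all Control arrays, and the means were 9.53 ± 0.09 and 8.97 ± 0.07 (SD, n = 3). The difference of -0.56 (SE 0.14, 95% interval -0.88 to -0.23), a fold of 0.680, had an unadjusted p of 0.00417 in limma and did not pass after adjustment (adjusted p = 0.225). It was between -0.61 and -0.52 when each array was left out in turn.

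The probe sets of MFN2 differed among themselves in size more than in sign. All 23 lay above background, with differences from -1.07 to 0.13. Among the 11 brighter ones the median difference was -0.24 with 10 lower, and among the 12 dimmer ones it was -0.61 with 12 lower. The probe set 16659196 had 9.32, 9.60 and 9.58 in Control and 8.27, 8.81 and 8.96 after transfer, a difference of -0.82 (limma adjusted p = 0.412 over all probe sets). The probe set 16659187 had 9.20, 9.58 and 9.11 in Control and 8.48, 8.47 and 8.79 after transfer. In both the groups were apart, while the single probe set with a positive difference, 16659185, overlapped at 9.71 to 10.12 in Control and 9.80 to 10.10 after transfer. Of 12099 genes with at least 9 probe sets, 1.83% had as small a share of higher probe sets as MFN2, and 2.27% had as large a share as MFN1. The count for MFN2 was also 22 of 23 after quantile normalization and after centring each array on its median, and MFN1 then had 15 of 17 higher.

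The mitofusins and FIS1 had the most one-sided probe sets, and their promoters are shown for that reason. Each is 300 bases from RefSeq (GRCh38.p14), 250 before the start of the gene and 50 after it, written 5′ to 3′ along the strand of the gene. MFN1 is from chr3:179347459-179347758 on the plus strand, MFN2 from chr1:11980194-11980493 on the plus strand and FIS1 from chr7:101245032-101245331 on the minus strand. Capitals mark matches, on either strand, to motifs of factors that are known to bind promoters of mitochondrial and housekeeping genes.
MFN1: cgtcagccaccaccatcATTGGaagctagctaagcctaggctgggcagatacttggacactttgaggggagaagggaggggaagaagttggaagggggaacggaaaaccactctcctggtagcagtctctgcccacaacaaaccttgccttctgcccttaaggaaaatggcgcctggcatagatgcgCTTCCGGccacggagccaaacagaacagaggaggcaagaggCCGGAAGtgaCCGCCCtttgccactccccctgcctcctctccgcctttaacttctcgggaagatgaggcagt
MFN2: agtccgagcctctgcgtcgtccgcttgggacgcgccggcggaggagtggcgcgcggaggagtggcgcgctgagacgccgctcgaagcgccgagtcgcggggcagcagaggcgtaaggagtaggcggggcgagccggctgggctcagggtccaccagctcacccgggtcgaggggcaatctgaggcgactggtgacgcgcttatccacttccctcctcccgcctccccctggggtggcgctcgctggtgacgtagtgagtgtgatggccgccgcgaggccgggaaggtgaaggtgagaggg
FIS1: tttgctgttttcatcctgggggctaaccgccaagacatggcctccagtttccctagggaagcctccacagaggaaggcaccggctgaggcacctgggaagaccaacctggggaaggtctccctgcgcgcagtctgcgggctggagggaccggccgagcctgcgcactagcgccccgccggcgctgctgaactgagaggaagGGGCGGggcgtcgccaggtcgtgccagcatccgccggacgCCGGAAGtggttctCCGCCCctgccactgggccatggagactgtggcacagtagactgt
The letters searched were GCATGCGC for NRF1, CCGGAAG for ETS factors, CCAAT for the CCAAT box, GGGCGG for the SP1 GC box, ATGGCGGC for YY1 and TCAAGGTCA for the estrogen-related receptors. Of 35114 promoters of the same length these occurred in 3.05%, 10.3%, 34.6%, 45.0%, 3.00% and 0.353%, in that order. MFN1 held 2 ETS matches, 1 CCAAT box and 1 GC box, FIS1 held 1 ETS match and 2 GC boxes, and the MFN2 window held none of these letters. The GC content was 57.0% for MFN1, 71.3% for MFN2 and 66.7% for FIS1, where the median of all promoters was 58.7%. Promoters were found for 9 of the 10 genes, without RHOT1, and were 12 in all, as MFF and RHOT2 had more than 1. A gene was counted if any of its promoters held the motif, while the shares above are per promoter. Among these 9 the GC box occurred in 8, the CCAAT box in 5, the ETS motif in 4 and the NRF1 motif in 1 (OPA1, with 2 matches that overlap on opposite strands), and no match overlapped that of another motif. A match describes the letters of the window and not a site in use.

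The contrast between the mitofusins was also read within each array, where a shift of the whole array does not alter it. The log2 difference of MFN1 minus MFN2 serves only to follow its change between groups, since the levels of probe sets of different genes cannot be set against each other. By brightest probe sets it was -0.02, -0.49 and -0.48 in Control and 0.21, -0.21 and 0.09 after transfer. The groups overlapped, and the change of 0.36 had p = 0.2 in a two-sided exact permutation test. By the median of probe sets it was -0.90, -1.54 and -1.19 in Control and -0.43, -0.53 and -0.11 after transfer. Here all transfer arrays lay above all Control arrays, and the change was 0.85 from -1.21 ± 0.32 to -0.36 ± 0.22 (SD, n = 3; exact permutation p = 0.1, the smallest that 3 against 3 can give). The design cannot reach 0.05 with this test.

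**Figure D2:**
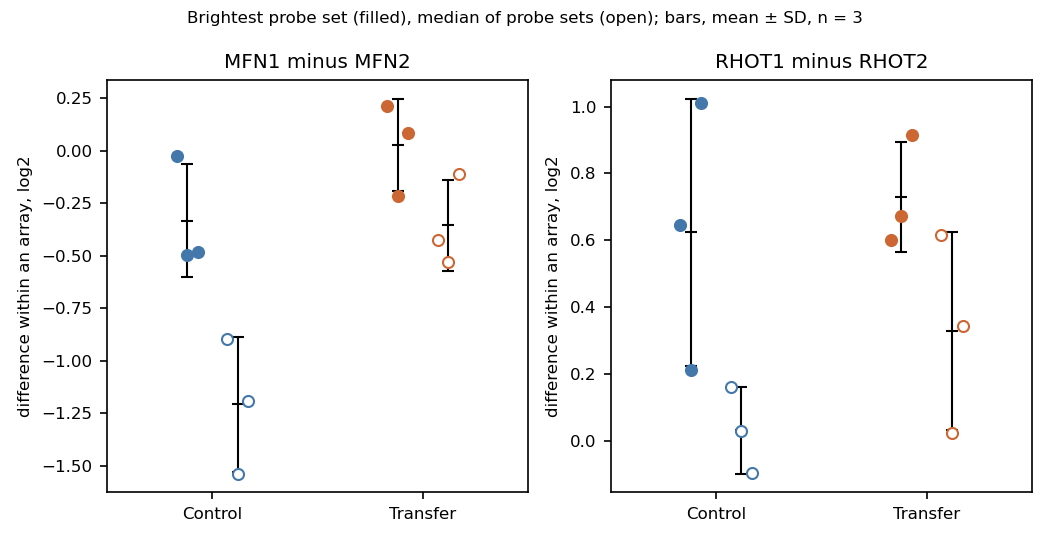
Log2 difference within an array between the paralogs MFN1 and MFN2 (left) and RHOT1 and RHOT2 (right), for Control in blue and transfer in orange, with the mean and SD of 3 arrays as bars. Filled points use the brightest probe sets and open points the median of probe sets; only the open MFN1 minus MFN2 points are apart, with means of -1.21 and -0.36, and RHOT1 minus RHOT2 overlaps in both.

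By the brightest probe sets, values for inner membrane fusion lay close together in the groups. OPA1 (chromosome 3, 193593208 to 193697811) had 10.51, 10.35 and 10.80 in Control and 10.52, 10.51 and 10.67 after transfer by its brightest probe set. The transfer values lay inside the Control range, with a difference of 0.01 (95% interval -0.36 to 0.39, limma adjusted p = 0.971). By the median of its 33 probe sets OPA1 had 8.60, 8.64 and 8.57 in Control and 8.83, 8.73 and 8.73 after transfer. These groups did not overlap, but the difference was only 0.16 (95% interval -0.15 to 0.47, limma adjusted p = 0.643). Of the 33 probe sets 21 were higher, 8 of them without overlap, and 12 were lower, 1 without overlap, where 7.29% of all probe sets were higher and 10.7% lower without overlap. The largest difference above background was in 16949732, with 7.48, 7.93 and 7.72 in Control and 8.83, 8.56 and 8.40 after transfer (0.89, limma adjusted p = 0.352).

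OMA1 (chromosome 1, 58480719 to 58546726), the protease of the inner membrane that cleaves OPA1, had 9.03, 8.96 and 9.15 in Control and 9.29, 9.10 and 9.01 after transfer. The groups overlapped, with a difference of 0.09 (95% interval -0.25 to 0.42, limma adjusted p = 0.783). Its 9 probe sets had differences from -1.74 to 0.26. Without overlap 1 was lower and 1 higher, beside 10.7% and 7.29% of all probe sets. They were split, with 5 higher and 4 lower, and the median of their differences was 0.08. The median over the probe sets, taken on each array, differed by -0.34 (limma adjusted p = 0.513), of opposite sign to both. A further 3 probe sets were assigned to OMA1 and its neighbour DAB1 together and were not used. Their differences were 0.24, 0.36 and 0.46.

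Among the genes of fission, by brightest probe set, FIS1 had the most negative difference and DNM1L the one nearest to 0, and neither passed the test. FIS1 (chromosome 7, 101239472 to 101245081), a small tail-anchored protein of the outer membrane, had 8.43, 8.48 and 8.75 in Control and 8.03, 8.07 and 7.82 after transfer by its brightest probe set. Every transfer array lay below every Control array. The means were 8.55 ± 0.17 and 7.97 ± 0.13 (SD, n = 3), a difference of -0.58 (SE 0.15, 95% interval -0.94 to -0.22) and a fold of 0.670. The unadjusted limma p was 0.00697 and the adjusted p was 0.127, so that the gene did not pass. Without 1 array at a time the difference was between -0.64 and -0.48, with adjusted p from 0.166 to 0.313.

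The other probe sets of FIS1 leaned the same way. Of 11, 10 were lower after transfer, 6 of them without overlap (10.7% of all probe sets), with a median difference of -0.51. The median of its probe sets was 7.24, 7.61 and 7.32 in Control and 6.84, 6.91 and 6.94 after transfer. These groups were apart as well, with a difference of -0.49 (SE 0.16, 95% interval -0.85 to -0.14, limma adjusted p = 0.272). The probe set 17060913 had 7.24, 7.61 and 7.70 in Control and 6.84, 7.12 and 6.81 after transfer. The exception, 17060916, had 6.69, 6.93 and 6.13 in Control and 6.79, 6.91 and 6.94 after transfer. The groups overlapped in it, and its level was near background, as was the median of the probe sets after transfer. Of the 11 probe sets 9 lay above background, 17060916 included, and the highest mean over the arrays was 8.26. A share of higher probe sets as small as that of FIS1 was found for 4.88% of the 12099 genes, and the count of 10 of 11 was the same under quantile normalization and centring. As given above, the mean of the NK cell markers was also lower after transfer, by less than FIS1, and whether the values are linked was not tested.

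DNM1L (chromosome 12, 32679301 to 32745650), the dynamin-related GTPase that constricts the organelle, had 11.22, 11.37 and 11.36 in Control and 11.17, 11.37 and 11.51 after transfer. The groups overlapped, with a difference of 0.03 (SE 0.15, 95% interval -0.31 to 0.38, limma adjusted p = 0.928). Of its 21 probe sets 9 were higher and 12 lower, a split that became 11 and 10 under quantile normalization and 12 and 9 under centring. The 18 probe sets above background all had differences between -0.31 and 0.21, the narrowest such spread of the 10 genes. Over all 21 the differences ran from -2.48 to 0.21, and 1 was lower without overlap (10.7% of all probe sets). MFF (chromosome 2, 227325251 to 227357836), the adaptor that recruits most DRP1 in many cell types, had 9.30, 8.84 and 9.13 in Control and 8.82, 9.19 and 8.79 after transfer. These overlapped too, with a difference of -0.16 (SE 0.18, 95% interval -0.59 to 0.28, limma adjusted p = 0.699), and 10 of its 20 probe sets were higher and 10 lower. Only 12 of the 20 lay above background. The intervals bound the change of DNM1L and MFF on this scale and do not show that either was equal in the groups.

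MIEF1 (chromosome 22, 39500100 to 39518132), also known as MiD51, binds DRP1 on the outer membrane. Its brightest probe set had 9.82, 9.96 and 9.89 in Control and 9.64, 9.73 and 9.35 after transfer. The transfer arrays were all lower, from 9.89 ± 0.07 to 9.57 ± 0.20 (SD, n = 3), and the difference of -0.32 (SE 0.15, 95% interval -0.67 to 0.04) had a limma adjusted p of 0.330. Of its 14 probe sets 11 were lower, 5 of them without overlap (10.7% of all probe sets), and 3 were higher, 2 of them without overlap (7.29% of all probe sets). The exception furthest above background was 16930274, which had 9.22, 8.13 and 9.18 in Control and 10.35, 10.22 and 10.69 after transfer. All transfer arrays lay above all Control arrays, and the difference of 1.58 (SE 0.36, 95% interval 0.71 to 2.45) was the one with the smallest limma adjusted p, 0.305, among the 177 probe sets. It passed in 1 alternative, limma with trend and robust options (adjusted p = 0.0368). The files do not say which exon each probe set covers.

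The transport genes RHOT1 and RHOT2 were compared as the second pair of paralogs. RHOT1 (chromosome 17, 32142502 to 32225727) had 10.08, 9.82 and 10.15 in Control and 10.34, 10.34 and 10.22 after transfer. The transfer arrays were all higher by this probe set, from 10.02 ± 0.17 to 10.30 ± 0.07 (SD, n = 3), and the difference of 0.28 (SE 0.14, 95% interval -0.06 to 0.63) did not pass (limma adjusted p = 0.355). By the median of its 14 probe sets on each array the groups overlapped, with a difference of -0.02 (limma adjusted p = 0.963). Of the 14, 8 were higher and 6 lower, and the median of their differences was 0.11. The probe set 16833097 had 8.21, 8.43 and 8.50 in Control and 8.82, 8.78 and 8.90 after transfer, while 16833092 had 8.28, 7.92 and 8.00 in Control and 7.62, 5.94 and 6.23 after transfer. The groups were apart in both, in opposite directions, so the direction for this gene depends on the probe set chosen.

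RHOT2 (chromosome 16, 668083 to 674174) had 9.44, 9.61 and 9.14 in Control and 9.74, 9.67 and 9.30 after transfer by its brightest probe set, which overlapped (0.18, SE 0.19, 95% interval -0.27 to 0.63, limma adjusted p = 0.661). The other probe sets mostly differed the other way, with 12 of 15 lower, 5 of them without overlap (10.7% of all probe sets). The median over its probe sets was 7.97, 7.93 and 8.03 in Control and 7.49, 7.99 and 7.49 after transfer. Transfer 2 lay within the Control range and the other two below it, and the difference was -0.32 (limma adjusted p = 0.471). The probe set 16814467 had 8.09, 8.51 and 8.65 in Control and 7.08, 8.07 and 7.42 after transfer (-0.89, limma adjusted p = 0.463). Within an array, RHOT1 minus RHOT2 by brightest probe sets was 0.65, 0.21 and 1.01 in Control and 0.60, 0.67 and 0.92 after transfer. The change of 0.11 (exact permutation p = 0.8) became -0.10 without Control 2. By the median of probe sets it was 0.16, 0.03 and -0.10 in Control and 0.62, 0.02 and 0.34 after transfer (0.30, exact permutation p = 0.3). The groups overlapped on both scales.

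Over the probe sets of all 10 genes together, 75 had a higher and 102 a lower transfer mean. The share of higher ones, 42.4%, was near that of all probe sets naming 1 gene, 43.8%, and their median difference was -0.05 where that of all was -0.07. Above background, 64 of 149 were higher (43.0%), beside 39.2% of all probe sets above background. The median differences there were -0.05 and -0.10. The other shares given here for all probe sets include those at or below background. Without overlap there were 15 higher (8.47%, beside 7.29% of all probe sets) and 32 lower (18.1%, beside 10.7%). Limma called 0 of 177 after adjustment over all probe sets, of which it called 0.0694%. At an unadjusted p under 0.05 there were 22, of which 5 were higher and 17 lower, where 4.58% of all probe sets were higher and 5.46% lower. Probe sets of a gene are repeats within an array and not replicates of the condition. Of the 17 lower ones, 5 belonged to MFN2, 3 to FIS1 and 3 to RHOT2.

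**Figure D3:**
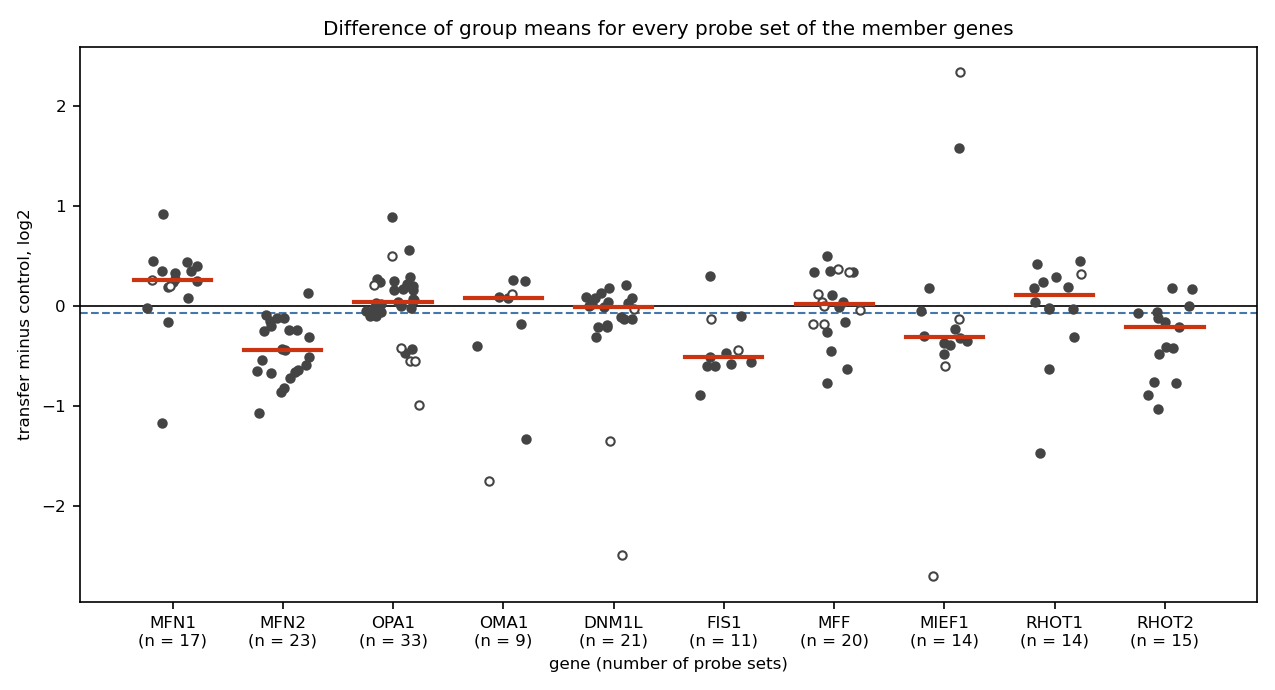
Transfer minus Control difference of group means, in log2, for each of the 177 probe sets by gene, with filled points above background, open points at or below it, red lines at the median of each gene and a dashed line at the median of all probe sets of the array, -0.07. MFN2 (median -0.44) and FIS1 (-0.51) lie almost wholly below 0 and MFN1 (0.26) mostly above it. The filled DNM1L points lie around 0, and its lowest open point stands at -2.48. A single filled MIEF1 point stands at 1.58, while open MIEF1 points reach -2.70 and 2.33.

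The genes around these 10 were described by 5 lists written from general knowledge, 96 measured genes in all. Of these, 31 had a positive and 65 a negative difference, with a median of -0.14 where the median of all genes was 0.00. Among all genes, 50.6% had a positive difference. Limma called 3 of the 96, 2 higher and 1 lower, where it called 1.98% of all genes. An unadjusted p under 0.05 was found for 19 (19.8%, beside 17.9% of all genes). By the median of probe sets 0 were called. The list medians were then -0.12 for fusion partners, -0.16 for fission partners and -0.08 for cristae organization. They were -0.15 for motors and adaptors and 0.07 for intercellular transfer. The median of all genes on that scale was -0.04. None of the 3 calls was present in every fit with 1 array left out.

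Among 17 partners of fusion and of OPA1 processing, 0 were called, beside 1.98% of all genes. Of the differences 15 were negative and 2 positive, and the median was -0.22. The smallest p-values belonged to PHB1, MIGA2 and CHCHD2. PHB1, a prohibitin that stabilises OPA1 in the inner membrane, had 11.50, 11.76 and 11.85 in Control and 10.91, 11.35 and 11.44 after transfer (-0.47, limma adjusted p = 0.264), and all 9 of its probe sets were lower. MIGA2, a mitoguardin of the outer membrane, differed by -0.44 (limma adjusted p = 0.307) with 16 of 17 probe sets lower. CHCHD2, a small protein of the intermembrane space, differed by -0.38 (limma adjusted p = 0.278) with 5 of 6 lower. None of these passed the test. At an unadjusted p under 0.05 there were 2 of the 17, both lower, beside 17.9% of all genes in either direction.

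Of 25 measured partners of fission and regulators of DRP1, 1 was called, beside 1.98% of all genes. Of the differences 19 were negative and 6 positive, with a median of -0.15. PPP3CB, a catalytic subunit of calcineurin, the phosphatase that dephosphorylates DRP1, rose from 9.07, 9.31 and 9.00 in Control to 10.07, 10.09 and 9.87 after transfer. The groups were apart by 0.89 (SE 0.15, limma adjusted p = 0.0354), but 8 of its 17 probe sets were higher and 9 lower, and the median of them differed by 0.17 (limma adjusted p = 0.721). It was called in 0 of the 6 fits without 1 array. DNM2, a dynamin proposed to act late in scission, differed by -0.65 (limma adjusted p = 0.154) with 21 of 23 probe sets lower. CLUH, which binds messenger RNAs of mitochondrial proteins, had 9.77, 9.76 and 9.79 in Control and 9.24, 9.13 and 9.06 after transfer. The groups were apart by -0.64 (limma adjusted p = 0.0635), with 17 of 19 probe sets lower, without passing the threshold.

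The 12 genes of cristae organization, the folding of the inner membrane by the MICOS complex, had 6 positive and 6 negative differences with a median of -0.01. APOO, the MICOS subunit also called MIC26, fell from 7.96, 7.97 and 7.93 in Control to 6.99, 6.96 and 7.28 after transfer. This was a difference of -0.88 (SE 0.14, limma adjusted p = 0.0308), with 3 of its 4 probe sets lower and a median over them of -0.29 (limma adjusted p = 0.780). It was called in 1 of the 6 fits without 1 array. DNAJC11, an outer membrane protein found with MICOS, differed by -0.49 (limma adjusted p = 0.136) with 24 of 27 probe sets lower. MICOS13 had a Control mean of 7.17 and a transfer mean of 6.57, the latter at background (limma adjusted p = 0.225).

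Among 23 motors and adaptors of mitochondrial transport 0 were called, beside 1.98% of all genes. The list had 8 positive and 15 negative differences and a median of -0.11. At an unadjusted p under 0.05 there were 6, 2 higher and 4 lower, beside 17.9% of all genes in either direction. KIF5A, a kinesin heavy chain, had 9.23, 9.11 and 9.23 in Control and 9.45, 9.69 and 9.77 after transfer (0.45, limma adjusted p = 0.182). Its groups were apart by that probe set, while 11 of its 18 probe sets were lower and their median differed by -0.95 (limma adjusted p = 0.324). ARMCX6, of the family of armadillo proteins that act with Miro, differed by -0.59 (limma adjusted p = 0.197), with 4 of 8 probe sets lower. ARMCX2 of the same family had a Control mean of 7.28 and a transfer mean of 6.05, below the background (limma adjusted p = 0.0618). Of its 12 probe sets 8 were lower and 4 higher, and their median differed by 0.17, of opposite sign (limma adjusted p = 0.743).

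Of 19 genes of intercellular transfer and tunnelling nanotubes, 1 was called, beside 1.98% of all genes. Such nanotubes are thin bridges through which cells can pass mitochondria. The list had 9 positive and 10 negative differences and a median of -0.08. By the median of probe sets the split turned to 13 positive and 6 negative, with a median of 0.07. TNFAIP2, known as M-Sec and a promoter of nanotube formation, rose from 7.63, 8.23 and 7.95 in Control to 9.24, 9.27 and 9.25 after transfer. The groups were apart by 1.32 (SE 0.18, 95% interval 0.90 to 1.74, fold 2.50, limma adjusted p = 0.0160). It was called in 3 of the 6 fits without 1 array, and 12 of its 20 probe sets were higher, with a median over them of 0.23 (limma adjusted p = 0.590). EXOC1 and EXOC3 belong to the exocyst, a complex that tethers vesicles and acts with M-Sec. EXOC1 differed by 0.63 (limma adjusted p = 0.113) with 13 of 20 probe sets higher, and EXOC3 by -0.43 (limma adjusted p = 0.213) with 14 of 20 lower. Neither passed the test.

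**Figure D4:**
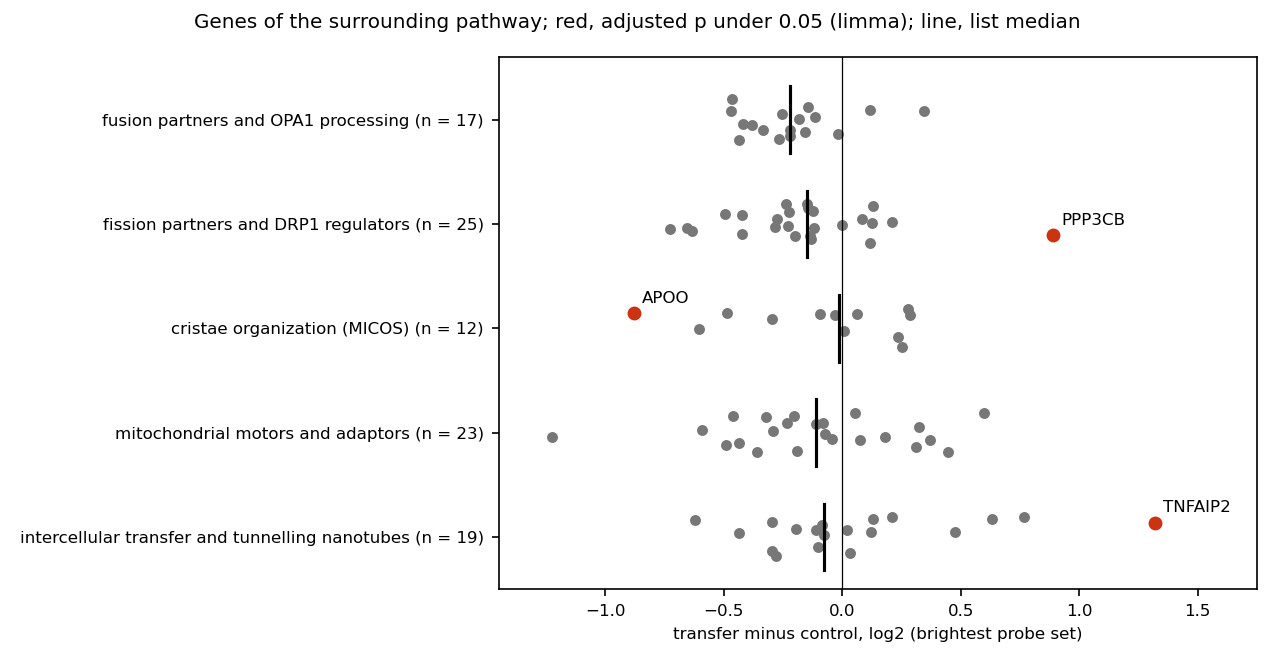
Transfer minus Control difference in log2 of the brightest probe set, 1 point per gene, in 5 lists of genes around mitochondrial fusion, fission and transport, with a line at the median of each list and red points for genes with a limma adjusted p under 0.05. The 3 red points are APOO at -0.88, PPP3CB at 0.89 and TNFAIP2 at 1.32, and the list medians run from -0.22 for fusion partners to -0.01 for cristae organization.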

How the data were processed

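According to the labels, the authors made the deposited log2 values with RMA in Affymetrix Power Tools, which corrects background, normalizes by quantiles and summarizes each probe set. No version or genome build is given in the sources used here, and the values were used without further normalization. Of 352859 probe sets, 13116 named several genes and 80519 none, and neither kind was used. Of the gene symbols, 20529 were current, 1726 were updated and 65 were unmatched. Control and transfer were compared in limma 3.58.1 (lmFit and eBayes, R 4.3.3), two-sided, with Benjamini-Hochberg adjustment over all genes or all probe sets and a threshold of 0.05. The procedure was tested on simulated data. The methods name a Student's test for the assays and no design for the arrays, so it was run as an alternative, called the methods' t-test. Other alternatives were the mean or median of probe sets, quantile, loess and median scaling, filters on dim values, trend and robust, array weights, a replicate block and each array left out. All 10 genes and, of each list, the genes called and the 3 with the smallest p were named. Single probe sets described were picked after their values were seen. The genes and lists were chosen with earlier results of these data known. The number of arrays limits the precision.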

Additional observations from a re-analysis of the deposited data

How the results depend on the processing

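Some differences of single genes changed sign with the setting, and the cause was not tested. With the mean of probe sets the difference was -0.32 for OMA1, -0.20 for DNM1L, -0.025 for RHOT1 and -0.33 for RHOT2, and with the median it was -0.34 for OMA1, -0.022 for RHOT1 and -0.32 for RHOT2. OPA1 ranged from -0.085 to 0.14 and DNM1L from -0.046 to 0.12 without 1 array at a time, with OPA1 at -0.01 and DNM1L at -0.02 without Control 1, OPA1 at -0.085 without Control 2, and OPA1 at -0.04 and DNM1L at -0.046 without transfer 3. Other differences kept their sign but moved by over 1.5 times without 1 array. The values nearest to 0 were 0.14 for MFN1 and 0.19 for RHOT1 without Control 2, -0.02 for MFN2 and 0.05 for RHOT2 without Control 3, -0.05 for MFF without Control 1, 0.01 for OMA1 without transfer 1 and -0.20 for MIEF1 without transfer 3. The values farthest from 0 were 0.32 for MFN1, -0.20 for MFN2, 0.15 for OMA1, -0.28 for MFF, -0.40 for MIEF1, 0.35 for RHOT1 and 0.31 for RHOT2. RHOT1 minus RHOT2 ranged from -0.10 to 0.30. In the other 148 combinations of a gene and a setting, the sign and the side of the threshold held. The number of the 10 genes called was 0 in every setting run. Of all genes, 440 were called, against 71 with the mean and 16 with the median of probe sets, 690 of 16006 above background, 1076 with trend and robust, 182 by the methods' t-test and 168 to 347 without 1 array. Of the list genes 3 were called, against 0 with the median of probe sets, 8 with trend and robust and 0 to 2 without 1 array. Of the 177 probe sets, 1 was called with trend and robust. With the replicate block, 158 of all genes, 0 of the list genes and 0 of the 177 probe sets were called. The sources used here do not say that the replicate numbers pair the arrays, so they were not taken to do so. In their deviations from the group means, Control and transfer arrays of the same number correlated at 0.07, 0.01 and 0.01. Those of different number correlated at -0.05 to 0.04. The all-gene median moved to 0.06 under quantile normalization and 0.05 under centring.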

Other observations

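The probe sets of OPA1 with consecutive identifiers 16949727 to 16949734 all had a positive difference, from 0.03 to 0.89. The groups did not overlap in 6 of these 8, where 7.29% of all probe sets were higher without overlap. Of the other 25 probe sets of OPA1, 13 were higher and 12 lower. The run was picked after its values were seen, no test was made of it, and the files do not give the position of a probe set in the gene. The longest such run of MFN2, 16659194 to 16659199, held 6 probe sets that were all lower, from -1.07 to -0.51. The groups did not overlap in 3 of these 6, where 10.7% of all probe sets were lower without overlap.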
